A study of Rattus norvegicus with 82 samples.

Results

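Right ventricular (RV) and left ventricular (LV) cardiomyocytes of the same hearts were compared in rats with compensated hypertrophy after aortic banding (AOB-H). The comparison holds 12 of the 82 libraries of the study, 1 RV and 1 LV library from each of 6 AOB-H animals, and the libraries were chosen by their group name and joined in pairs by the animal number that both carry. All animals were F1 hybrids of female Wistar Kyoto and male Lewis rats, and of the 6 AOB-H animals 2 were male and 4 female. A clip that did not constrict at surgery was placed around the ascending aorta of young rats, so that growth turned it into a stenosis that loads the LV, while the RV of the same heart is not banded. The labels give an age of 11 weeks and a treatment time of 7 weeks (the text of the study gives other ages), which the study calls the compensated stage (H). The other conditions used beside it were Sham-H, PAB-H and AOB-F. Sham-H was sham surgery at the same stage (7 animals, 3 male and 4 female). PAB-H was a clip on the pulmonary artery, which loads the RV, at the same stage (6 animals, 4 male and 2 female). AOB-F was aortic banding at failure (7 animals, 4 male and 3 female, with a labelled age of 31 weeks). Per animal the heart was perfused with collagenase, both ventricles were minced apart, cardiomyocytes were enriched by filtration and low-speed centrifugation, and total RNA depleted of ribosomal RNA was sequenced. Cells were thus enriched by sedimentation and not sorted by a marker.

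Both ventricles of the rat heart pump the same blood volume, the RV into the lungs at low pressure and the LV into the body at high pressure. Their cardiomyocytes stem largely from different progenitor fields of the embryo, and some transcription factor genes of the Iroquois and T-box families are known to differ in activity between chambers or wall layers of the adult heart. Pressure load is classically followed in cardiomyocytes by the genes of the natriuretic peptides and of the fetal isoforms of contractile proteins, which are made mostly in the atria or the embryonic heart and return in a strained ventricle. The comparison within an animal asks which genes differ between the banded LV and the RV at a stage without failure, and the comparison with sham rats asks which of these differences go with the band.

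Counts on genes summed to between 9257139 and 15470045 in the RV libraries and between 6675287 and 15582100 in the LV libraries, the lowest being LV replicate 6. The ventricular cardiomyocyte list, 9 genes of the sarcomere and of calcium release, took 12.9 to 13.9% of the counts in RV and 9.0 to 12.7% in LV libraries, and the endothelial list 0.0759 to 0.269% in RV and 0.138 to 0.559% in LV. Replicate 6 stood apart, with the highest endothelial share in both ventricles and the lowest cardiomyocyte share of the LV libraries, and counts are therefore also given without it. The marker genes of other cell types took small shares of the counts, and the endothelial share was lower in RV in every animal. The share of all RNA of these cell types was not measured. The endothelial score, the mean log2 count of 8 marker genes scaled to library size, was lower in RV than in LV in 6 of 6 animals, the difference being -0.997 ± 0.193 (SD, n = 6), the smallest p that an exact two-sided sign-flip test over 6 pairs can give (0.0312, adjusted p = 0.203 over 13 lists), and the cardiomyocyte score was higher in RV in 6 of 6 by 0.28 ± 0.25 (SD, n = 6, same p). In Sham-H the endothelial score differed by -0.89 ± 0.39 (SD, n = 7) and in PAB-H by -0.37 ± 0.26 (SD, n = 6). Scores of fibroblasts (-0.32, 4 of 6 animals lower in RV), mural cells (-0.19, 4 of 6), macrophages (-0.02, 3 of 6) and lymphocytes (-0.05, 4 of 6) did not differ in 1 direction in all animals, and neither did those of atrial (0.38), conduction (0.16), endocardial (0.28), mesothelial (0.81), Schwann (0.01), red blood (-0.36) and fat cells (-0.09). Of the 5 neutrophil genes 0 had enough counts to be tested. In such bulk libraries fewer cells of a type and less RNA per cell cannot be told apart.

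**Figure D1:**
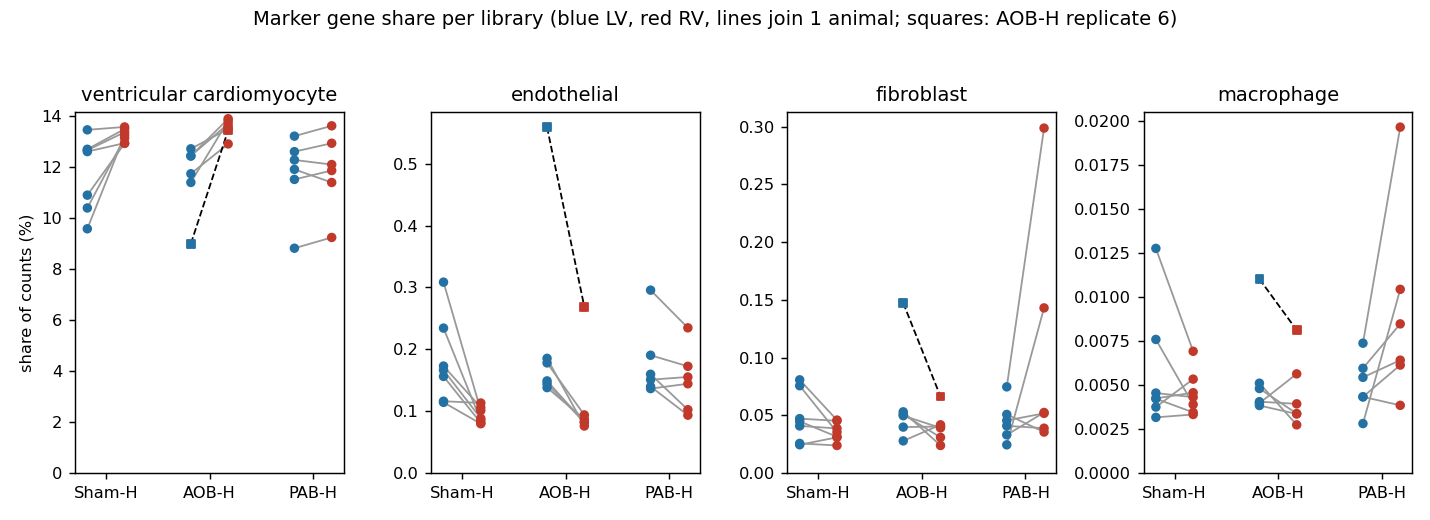
Share of counts (%, linear axis) taken by 4 marker gene lists in LV (blue) and RV (red) libraries of Sham-H, AOB-H and PAB-H, each line joining the libraries of 1 animal and squares marking AOB-H replicate 6. In AOB-H the endothelial share fell from LV to RV in every animal, and replicate 6 had the highest values, 0.559% in LV and 0.269% in RV.

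Of 11954 genes tested, 1644 (13.8%) differed between RV and LV of AOB-H hearts at an adjusted p under 0.05 in edgeR's quasi-likelihood test with the animal as a block. Of these, 534 (4.47% of genes tested) were higher in RV and 1110 (9.29%) lower. The median absolute log2 fold change of the called genes was 0.76, and the median over all genes tested was 0.03. A second rule was adapted from the filter that the study applies to banded against sham hearts. It asks for a change over 1 on the log2 scale, for p not above 0.01 before adjustment and, set here for ventricles, for more than 50 normalized counts on average in RV or LV. By these criteria 368 genes differed (3.08%), 44 higher in RV (0.368%) and 324 lower (2.71%). In 443 genes (3.71%) the values of the 6 RV and 6 LV libraries did not overlap. Without replicate 6, 249 genes were higher and 720 lower at an adjusted p under 0.05, and 937 of the 1644 remained called. Without the block the counts were 187 higher and 766 lower. With the endothelial score of each library as a covariate, 317 were higher and 136 lower, and 122 of the 1644 remained. This score itself was lower in RV in every animal, so the covariate and the ventricle share part of their variation.

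Among called genes with a mean normalized count over 50 in either ventricle the largest change was that of Nppa, the gene of atrial natriuretic peptide, a hormone that strained heart muscle secretes. In the LV libraries its normalized count was 1943 at the lowest, 3517 at the median and 13506 at the highest, and in the RV libraries 329, 541 and 900. Every LV library lay above every RV library, and in single animals the LV held between 2.16 and 18.3 times the RV count. The log2 fold change of RV over LV was -2.94 ± 0.47 (SE, n = 6 pairs, adjusted p = 1.1e-05), and -3.28 without replicate 6. Here and below the SE of a log2 fold change comes from the fit over all 82 libraries and is not the spread of the 6 animals. The highest LV value belonged to replicate 2. Nppb, the gene of B-type natriuretic peptide, a neighbour of Nppa in the rat genome, ran from 4119 to 9596 in LV with a median of 6705 and from 1866 to 2936 in RV with a median of 2716. Its groups did not overlap either, and the log2 fold change was -1.38 ± 0.22 (SE, adjusted p = 1.2e-05).

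Acta1, the gene of skeletal muscle α-actin, an isoform of the fetal heart, was counted 6807 to 23260 times in LV (median 9529) and 3137 to 8204 times in RV (median 5876). The groups overlapped, but the LV value was the higher one in each animal, by 2.25 times at the median and 3.28 times at most, and the log2 fold change was -1.14 ± 0.28 (SE, adjusted p = 0.004). Ankrd23, the gene of a stretch-responsive ankyrin repeat protein of the sarcomere, was also lower in RV (-1.30 ± 0.27, SE, adjusted p = 0.00064), with 218 to 548 counts against 497 to 2206 in LV. Tceal7, a gene related to transcription elongation factors and not in the load list, had low counts of 12.4 to 30.2 in RV and 13 to 185 in LV and a log2 fold change of -1.65 ± 0.43 (SE, adjusted p = 0.0058). Of the 21 tested members of the load and stretch list 6 were lower in RV and 0 higher, against 9.29% lower and 4.47% higher of all genes, the members not yet named being Tgfb2, a transforming growth factor (-0.79), and Ace, angiotensin-converting enzyme (-0.78). Beside these, 15 did not pass, and the list's median log2 fold change was -0.17. Among the 15 was Myh7, the β-myosin heavy chain of the fetal heart, with a log2 fold change of -0.17 ± 0.18 (SE, adjusted p = 0.61) and a lower RV value in 4 of 6 animals. Without replicate 6 the list again gave 6 lower and 0 higher. Without the block it gave 4 lower and 0 higher, and Acta1 (-1.19, adjusted p = 0.0503) did not pass. With the endothelial score as a covariate, 1 member was lower and 1 higher, the values of Nppa, Nppb and Acta1 being -1.46 (adjusted p = 0.16), -1.21 (adjusted p = 0.034) and -0.56 (adjusted p = 0.45).

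**Figure D2:**
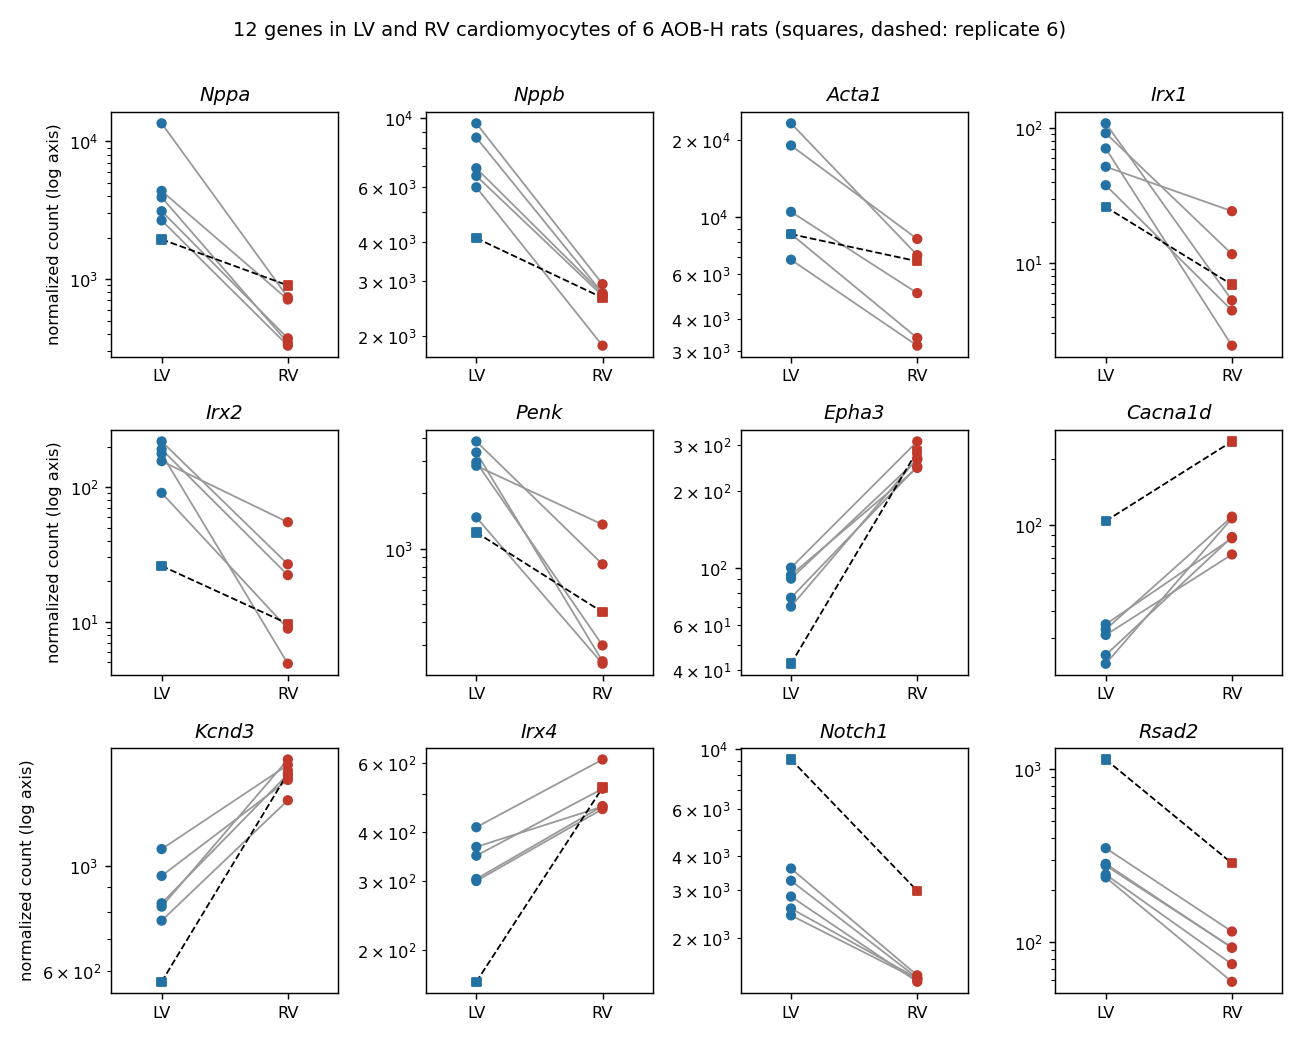
Normalized counts (log axis) of 12 genes in the LV (blue) and RV (red) library of each of 6 AOB-H rats, lines joining an animal and squares with dashed lines marking replicate 6. Nppa, Nppb, Acta1, Irx1, Irx2, Penk, Notch1 and Rsad2 lay lower in RV in all 6 animals, and Epha3, Cacna1d, Kcnd3 and Irx4 higher in RV in all 6.

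Promoter sequences of RefSeq, 250 bases before to 50 after the start of a gene in the rat build GRCr8, were at hand for 78 of the 104 genes with library values here. Those of Nppa, Nppb and Acta1 are shown as examples of the load list members lower in RV. Ankrd23, another such member, changed more than Acta1 (-1.30 against -1.14) and is not shown. Those of Rsad2 and Ifi44 are shown because both belong to the interferon group described further on. Each is written 5′ to 3′ on the strand of the gene, and capitals mark motif matches on either strand. The MCAT element, which TEAD factors bind, was searched as CATTCC. The GATA site was searched as AGATAA only, and other spellings of it were not searched. The core of the interferon-stimulated response element (ISRE) was searched as a repeat of the letters GAAA with 2 bases of any kind between them. Nppa lies on the plus strand at chr5:163711934-163712233, Nppb on the plus strand at chr5:163699758-163700057, Acta1 on the minus strand at chr19:68784145-68784444, Rsad2 on the minus strand at chr6:48788071-48788370 and Ifi44 on the minus strand at chr2:243303791-243304090.
Nppa: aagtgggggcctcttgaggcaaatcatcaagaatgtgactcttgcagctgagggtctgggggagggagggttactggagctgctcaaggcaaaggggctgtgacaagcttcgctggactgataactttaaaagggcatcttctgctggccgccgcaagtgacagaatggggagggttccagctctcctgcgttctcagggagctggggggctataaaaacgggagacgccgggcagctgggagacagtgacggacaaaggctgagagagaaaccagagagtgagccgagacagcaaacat
Nppb: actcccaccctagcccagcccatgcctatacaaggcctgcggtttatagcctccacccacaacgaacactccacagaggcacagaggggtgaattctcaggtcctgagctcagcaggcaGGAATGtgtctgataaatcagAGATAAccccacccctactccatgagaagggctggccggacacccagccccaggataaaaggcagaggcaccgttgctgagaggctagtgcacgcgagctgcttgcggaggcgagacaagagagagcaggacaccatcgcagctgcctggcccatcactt
Acta1: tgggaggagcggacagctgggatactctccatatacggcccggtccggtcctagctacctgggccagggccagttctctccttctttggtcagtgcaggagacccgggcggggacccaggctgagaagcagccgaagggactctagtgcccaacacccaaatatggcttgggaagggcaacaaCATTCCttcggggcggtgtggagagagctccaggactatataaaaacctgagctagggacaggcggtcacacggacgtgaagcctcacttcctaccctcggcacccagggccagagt
Rsad2: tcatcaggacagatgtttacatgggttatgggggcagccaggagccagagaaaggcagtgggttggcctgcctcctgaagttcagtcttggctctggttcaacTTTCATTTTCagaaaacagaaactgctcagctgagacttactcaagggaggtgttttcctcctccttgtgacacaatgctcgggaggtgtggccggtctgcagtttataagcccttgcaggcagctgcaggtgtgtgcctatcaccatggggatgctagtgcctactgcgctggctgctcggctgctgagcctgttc
Ifi44: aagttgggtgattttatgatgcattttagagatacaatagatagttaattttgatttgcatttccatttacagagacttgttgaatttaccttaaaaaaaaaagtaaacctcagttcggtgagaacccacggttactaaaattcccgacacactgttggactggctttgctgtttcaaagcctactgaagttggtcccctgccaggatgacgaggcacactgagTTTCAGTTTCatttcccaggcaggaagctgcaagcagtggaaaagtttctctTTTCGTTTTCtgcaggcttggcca
The Nppb window held 1 MCAT and 1 GATA match to these letters, Acta1 1 MCAT match and Nppa no match to any of the 3. A window without a match can still hold another spelling of a site. MCAT letters were in 4 of 16 load list promoters and in 14.2% of all 33469 promoters, GATA letters in 2 of 16 and in 11.6% of all. The ISRE core was in 13 of 20 interferon list promoters and in 3.92% of all.

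The Iroquois genes split by member. Irx1 and Irx2, neighbouring homeobox genes of 1 cluster, were lower in RV cardiomyocytes. Irx2 was counted 26.0 to 219 times in LV (median 166) and 4.87 to 54.9 times in RV (median 15.9), and Irx1 26.0 to 108 times in LV (median 61.1) and 2.44 to 24.2 times in RV (median 6.09). Both log2 fold changes were -2.83 (SE 0.41 and 0.43, adjusted p = 2.2e-06 and 4.6e-06), and the LV value was the higher one in 6 of 6 animals for both genes. Irx4, a ventricular member of the same cluster, went the other way, with 458 to 614 counts in RV and 166 to 412 in LV, no overlap and a log2 fold change of 0.71 ± 0.14 (SE, adjusted p = 0.00015). With the endothelial covariate Irx2 stood at -2.83 (adjusted p = 0.0098), Irx1 at -2.38 (adjusted p = 0.041) and Irx4 at 0.52 (adjusted p = 0.12).

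Of the 28 tested cardiac transcription factor genes 5 were higher in RV, 6 lower and 17 not past the threshold, against 4.47% and 9.29% of all genes. Besides the Iroquois genes, Tbx3 and Tbx2, T-box repressors known from the conduction system, were lower in RV (-1.11 and -0.79), as were Hopx, a homeodomain-only protein of heart muscle (-1.05), and Hey1 (-0.93), a target of Notch signalling. Higher in RV were Hey2, a related repressor of ventricular muscle (0.65), Zfpm2, a cofactor of GATA proteins (0.52), Esrrg, a nuclear receptor that drives oxidative genes (0.40), and Gata6 (0.35). Without replicate 6 the list gave 2 higher and 4 lower. The endothelial covariate left 0 higher and 3 lower, Hey2 standing at 0.055 (adjusted p = 0.93), Hopx at -0.49 (adjusted p = 0.27) and Tbx3 at -0.56 (adjusted p = 0.15).

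Penk, the gene of proenkephalin, the precursor of opioid peptides, belonged to the genes with the steepest gradient. Its count was 1227 at the lowest, 2881 at the median and 3817 at the highest in LV and 239, 377 and 1354 in RV. Only the highest RV library reached into the LV range, each animal had the higher value in LV, and the log2 fold change was -2.38 ± 0.33 (SE, adjusted p = 1.0e-06). With the endothelial covariate it was -2.33 (adjusted p = 0.0057).

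Among the genes higher in RV, Epha3, the gene of a receptor of ephrin ligands, separated the ventricles without overlap, with 245 to 311 counts in RV (median 266) and 42.2 to 100.03 in LV (median 83.5). RV held 2.62 to 6.77 times the LV count within an animal, and the log2 fold change was 1.79 ± 0.23 (SE, adjusted p = 2.7e-07). Cacna1d, the pore subunit of the L-type calcium channel Cav1.3 of pacemaker and atrial cells, was counted 72.9 to 241 times in RV (median 97.3) and 22.9 to 104 times in LV (median 32). The highest value of either ventricle was that of replicate 6, the RV value was the higher one in 6 of 6 animals, and the log2 fold change was 1.56 ± 0.22 (SE, adjusted p = 1.2e-06). Mettl24, of the methyltransferase-like family, rose by 1.52 ± 0.28 (SE, adjusted p = 9.9e-05), with 36 to 67.7 counts in RV and 11.6 to 25.7 in LV. Atp6ap1l, related to a proton pump accessory subunit and overlapping the ribosomal gene Rps23 (0.03, adjusted p = 0.92), was higher in RV by 1.61 ± 0.25 (SE, adjusted p = 5.4e-06), and Myl7, the regulatory light chain of atrial myosin, by 1.57 ± 0.44 (SE, adjusted p = 0.01), from low counts of 44.4 to 213 in RV and 21.5 to 60.02 in LV. Under the endothelial covariate Epha3 stood at 0.87 (adjusted p = 0.083) and Atp6ap1l at 0.81 (adjusted p = 0.14), whereas Cacna1d (1.29), Mettl24 (1.83) and Myl7 (2.41) kept their calls.

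The remaining genes with the largest positive changes were counted far less than some genes near them. Il25 (1.97 ± 0.56, SE, adjusted p = 0.013) and Cmtm5 (1.67 ± 0.53, SE, adjusted p = 0.028) lie apart from Myh6, their neighbour, whose mean count was 833777 in RV and 608868 in LV (0.47, adjusted p = 0.029), and from Efs (0.95, adjusted p = 0.0092). Pnmt (1.79 ± 0.47, SE, adjusted p = 0.0065), which makes adrenaline from noradrenaline, lies apart from Tcap, with 7940 counts in RV and 5630 in LV (0.56, adjusted p = 0.0095), from Pgap3, with 681 and 263 (1.36, adjusted p = 4.5e-05), and from Stard3 (0.09, adjusted p = 0.68). Gulo (1.80 ± 0.48, SE, adjusted p = 0.0079), of vitamin C synthesis, lies apart from Clu, whose log2 fold change was 0.11 (adjusted p = 0.54). Tlr9 (1.86 ± 0.42, SE, adjusted p = 0.0015), a receptor of unmethylated DNA, overlaps Rpl29 (0.14, adjusted p = 0.50) by RefSeq gene positions. The counting left out multiple overlaps, and whether it used strand is not stated. How far the reads of both genes can be told apart was not tested. Twf2 and Alas1, the other neighbours of Tlr9, stood at 0.07 and -0.11, neither past the threshold. The part of the neighbours in these values was not tested. The RV and LV counts of Il25, Cmtm5, Pnmt, Gulo and Tlr9 overlapped, although all 6 animals had the higher value in RV. With the endothelial covariate these genes, in this order, stood at 0.33, -0.26, 0.18, 0.33 and 0.91, none past the threshold (adjusted p = 0.84, 0.86, 0.89, 0.80 and 0.38). Without the block Il25, Cmtm5 and Pnmt did not pass (adjusted p = 0.10, 0.16 and 0.053), whereas Gulo and Tlr9 did (adjusted p = 0.013 and 0.0048).

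Of the further genes lowest in RV, Aplnr, the receptor of apelin in vessels, was counted 430 to 1093 times in RV (median 514) and 1465 to 4192 times in LV (median 1764), with a log2 fold change of -1.85 ± 0.21 (SE, adjusted p = 5.2e-08). Gimap9, a GTPase of the immunity-associated family, changed by -1.87 ± 0.23 (SE, adjusted p = 1.5e-07), and its neighbours Gimap4, Gimap6 and Gimap8 by -1.69, -1.53 and -1.28. Ly6c, of a family of surface antigens of endothelial and white blood cells, changed by -1.80 ± 0.28 (SE, adjusted p = 5.4e-06), Dpep2, a dipeptidase, by -1.83 ± 0.27 (SE, adjusted p = 3.5e-06), and Sema3d, a secreted semaphorin, by -1.79 ± 0.34 (SE, adjusted p = 0.00013). Kif22, a kinesin of dividing cells, changed by -2.02 ± 0.34 (SE, adjusted p = 2.5e-05) at counts of 4.65 to 38.6 in RV and 21.3 to 146 in LV. With the endothelial covariate the values of Aplnr and Ly6c were -0.51 (adjusted p = 0.071) and -0.35 (adjusted p = 0.50), whereas Gimap9 stood at -1.24 (adjusted p = 0.024). Dpep2, Sema3d and Kif22 then stood at -0.97, -0.58 and -1.70 and did not pass (adjusted p = 0.13, 0.49 and 0.053).

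Of the 31 tested sarcomere genes 12 were higher in RV and 1, Acta1, lower, against 4.47% and 9.29% of all genes, with a list median of 0.26. The highest-count gene was Myh6, the α-myosin heavy chain of the adult rat ventricle, with 770419 to 925574 counts in RV and 422653 to 723444 in LV, no overlap and a log2 fold change of 0.47 ± 0.15 (SE, adjusted p = 0.029). Mylk3, the cardiac myosin light chain kinase, rose by 0.64 ± 0.11 (SE, adjusted p = 4.1e-05), Tcap, the titin cap, by 0.56, and the troponin genes Tnnt2 and Tnni3 by 0.51 and 0.48. Tnni1, the slow skeletal troponin I of the fetal heart, was higher by 2.15 ± 0.43 (SE, adjusted p = 0.00028) but at counts of 12.4 to 23.2 in RV and 1.20 to 9.49 in LV. The ventricular cardiomyocyte score was higher in RV in 6 of 6 animals, as given above. It is not separate from this list, since Myh6, Tnnt2 and Tnni3 belong to both. The part of cardiomyocyte RNA in the list was not tested. Without replicate 6, 3 sarcomere genes were higher and 1 lower, Myh6 standing at 0.40 (adjusted p = 0.16). Without the block 2 were higher and 0 lower. Under the endothelial covariate 4 were higher and 0 lower, and Myh6, which then was also the median member, stood at 0.00083 (adjusted p = 0.999).

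Ion channel genes gave 10 higher and 3 lower of 38 in RV, against 4.47% and 9.29% of all genes, the share lower being near that of all genes. Without replicate 6 the list gave 7 higher and 3 lower, without the block 7 and 1, and with the endothelial covariate 1 and 2. The potassium channel subunits of the transient outward current were higher in RV, Kcnd3 with 1373 to 1673 counts against 570 to 1084 in LV, no overlap and a log2 fold change of 0.91 ± 0.17 (SE, adjusted p = 0.0001), Kcnd2 by 0.64 (adjusted p = 0.0027) and Kcna4 by 0.60 (adjusted p = 0.036). Kcnj5 and Kcnj3, subunits of the acetylcholine-gated potassium channel, rose by 0.84 (adjusted p = 7.2e-07) and 0.64, Kcna2 by 1.14 (adjusted p = 4.3e-06), and the background potassium channel gene Kcnk2 by 0.92. Lower in RV were Kcna5, a delayed rectifier subunit (-1.39, adjusted p = 0.00011), Kcnn3, a calcium-activated channel (-0.66), and Kcnj8, a subunit of the ATP-sensitive channel that also marks mural cells (-0.61). With the endothelial covariate Kcnd3, Kcnd2 and Kcna5 were at 0.13, -0.04 and -0.15, none past the threshold.

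Calcium cycling genes gave 5 higher and 3 lower of 24, and these counts and those of the next lists stand against 4.47% and 9.29% of all genes. Hrc, a calcium-binding protein of the sarcoplasmic reticulum, was higher in RV without overlap (0.57 ± 0.16, SE, adjusted p = 0.014), as was Ppp1r1a, an inhibitor of protein phosphatase 1 (0.85 ± 0.21, SE, adjusted p = 0.0035). Itpr2, an inositol trisphosphate receptor, was lower (-0.81 ± 0.13, SE, adjusted p = 1.5e-05), as was Sri, the gene of sorcin, a modulator of calcium release (-0.49). Of 20 intercalated disc genes 4 were higher, namely the connexin Gja3 (1.05 ± 0.15, SE, adjusted p = 1.4e-06), the adhesion gene Cxadr (0.72), Cdh2, the gene of N-cadherin (0.50), and the scaffold Ank3 (0.45), and Ctnnb1, β-catenin, was lower (-0.30). Adrenergic and cAMP genes split evenly, 8 higher and 8 lower of 32. The receptors of cardiomyocytes Adrb1 (0.54), Adra1a (0.43) and Adra1b (0.46) and the muscarinic receptor Chrm2 (0.54) were higher in RV. Of the phosphodiesterases that degrade cyclic nucleotides, Pde2a and Pde8a were lower (-0.56 and -0.59) and Pde3a higher (0.34). Without replicate 6 this list gave 1 higher and 6 lower, the calcium list 1 higher and 2 lower, and the disc list 3 higher and 0 lower. Without the block 1 adrenergic, 1 calcium and 2 disc genes were higher, and 4, 2 and 1 lower. When the endothelial score was a covariate, 0, 0 and 1 were higher, and 1, 1 and 0 lower.

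Few genes of energy metabolism passed, and the counts are read against 4.47% of all genes higher and 9.29% lower in RV. Of 35 fatty acid oxidation genes 5 were higher and 0 lower, namely Angptl4, an inhibitor of lipoprotein lipase (1.33 ± 0.34, SE, adjusted p = 0.0055), Pdk4, which restrains pyruvate use (0.58), Hadh (0.51), Etfb (0.49) and Cpt1a, the entry step of mitochondrial oxidation (0.32). Of 77 oxidative phosphorylation genes 10 were higher and 1 lower with a median of 0.25, Atp5j2 (0.75, adjusted p = 0.0016) and Cox6c (0.53, adjusted p = 0.007) having the smallest p and Cox4i2, an isoform of vascular cells, being the lower one (-0.83). Of 35 genes of glucose uptake and glycolysis 3 were higher (8.57%), among them Eno3, muscle enolase, with 5236 to 8264 counts in RV and 1690 to 4618 in LV (0.91 ± 0.14, SE, adjusted p = 1.0e-05). Cytosolic ribosomal protein genes gave 4 higher of 81 (4.94%), near the share of all genes, with a median of 0.17. Without replicate 6 the counts higher in RV were 4 of fatty acid oxidation, 1 of oxidative phosphorylation, 1 of glycolysis and 0 ribosomal. Without the block they were 1, 0, 2 and 0. When the endothelial score was a covariate, they were 1, 11, 3 and 28, beside 2 fatty acid oxidation genes (list median -0.20) and 3 glycolysis genes that were lower.

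Among 32 immediate early genes, which respond to stimuli within minutes, 5 were higher in RV and 0 lower, against 4.47% and 9.29% of all genes. Socs3, a brake on cytokine signalling, was higher by 1.03 ± 0.26 (SE, adjusted p = 0.0051), Egr2 by 0.79, Fos by 0.54, Egr1 by 0.49 and Junb by 0.47. Fos was higher in RV in 6 of 6 animals, with 6905 to 11964 counts against 4050 to 7043 in LV, and Socs3, Egr2 and Junb in 5 of 6. Without replicate 6 the list gave 9 higher, without the block 2, and with the endothelial covariate 5. Of 15 circadian clock genes 1 was higher (6.67%, near the share of all genes), Nr1d1, a repressor of the clock (0.69 ± 0.15, SE, adjusted p = 0.00066). Without replicate 6 the clock list gave 2 higher, and without the block and with the endothelial covariate 0. In these last 2 fits Nr1d1 stood at 0.63 (adjusted p = 0.17) and 0.70 (adjusted p = 0.060).

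**Figure D3:**
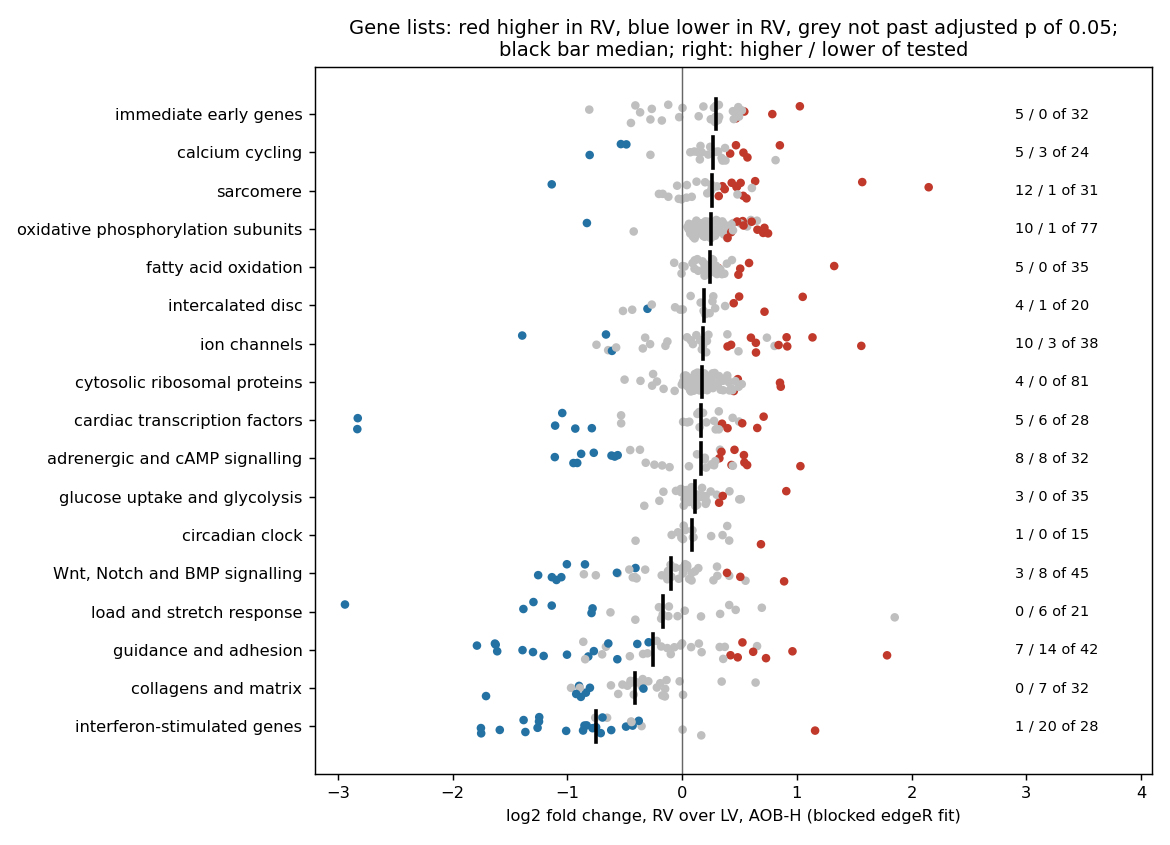
Log2 fold change of RV over LV in AOB-H (x axis) of every tested member of 17 gene lists (rows), red where higher and blue where lower in RV at an adjusted p under 0.05, grey otherwise, with the list's median as a black bar and the counts at the right. Interferon-stimulated genes lay furthest to the left, 20 of 28 lower in RV with a median of -0.75, and 12 of 31 sarcomere genes were higher.

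The interferon-stimulated genes were, of the 17 gene lists, the one with the largest share called, 20 of 28 lower in RV and 1 higher, with a median of -0.75. Rsad2, which encodes the antiviral enzyme viperin, was counted 58.9 to 286 times in RV (median 92.8) and 237 to 1138 times in LV (median 280), and the log2 fold change was -1.75 ± 0.24 (SE, adjusted p = 6.2e-07). The highest value of each ventricle came from replicate 6, and within every animal LV held 2.98 to 4.02 times the RV count. Oas2, a sensor of double-stranded RNA, changed by -1.75 ± 0.25 (SE, adjusted p = 1.3e-06), the antiviral GTPase gene Mx1 by -1.59 ± 0.25 (SE, adjusted p = 1.1e-05), Ifi44 by -1.25 ± 0.18 (SE, adjusted p = 2.1e-06), and Usp18, a brake on interferon signalling, by -0.78 ± 0.11 (SE, adjusted p = 1.0e-06) with no overlap. The exception was the chemokine gene Cxcl10, higher in RV by 1.16 ± 0.31 (SE, adjusted p = 0.0073) and in 5 of 6 animals. In replicate 6 the RV count was 0.283 times the LV count. By RefSeq gene positions Cxcl10 overlaps Art3 (0.43, adjusted p = 0.049), with 7139 counts in RV and 5315 in LV. How far the reads of both genes can be told apart was not tested. Of the 16 called lower that had a promoter sequence, 11 held the ISRE core printed above for Rsad2 and Ifi44. Without replicate 6, 12 were lower and 1 higher, and with the endothelial covariate 2 were lower and 1 higher. Of the endothelial marker list 7 of 8 genes were lower in RV, among them Tie1 (-1.33) and Pecam1 (-1.02), the exception being Vwf (-0.30, adjusted p = 0.52). Beyond the covariate counts given above, the part of endothelial RNA in the interferon list was not tested.

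Of 45 Wnt, Notch and BMP genes 8 were lower in RV and 3 higher, against 9.29% and 4.47% of all genes, the share higher being near that of all genes. The Notch receptor gene Notch1 was counted 1373 to 2978 times in RV and 2417 to 9114 times in LV (-1.14 ± 0.17, SE, adjusted p = 2.2e-06), and the Notch ligand genes Dll1, Dll4 and Jag1 changed by -1.25, -1.05 and -0.85. Higher in RV was Dkk3, a secreted protein of the Dickkopf family, with 3438 to 4255 counts against 1175 to 2705 in LV, no overlap and a log2 fold change of 0.89 ± 0.11 (SE, adjusted p = 1.0e-07), and, by 0.51, the Wnt receptor gene Fzd1. Of 42 guidance and adhesion genes 14 were lower and 7 higher, again against 9.29% and 4.47%. Nrp2, a coreceptor of semaphorins and vascular growth factors, had the smallest p of all named genes (-1.61 ± 0.16, SE, adjusted p = 1.7e-09), with 301 to 679 counts in RV and 857 to 2309 in LV, and Plxnd1, the endothelial plexin, and Efnb2, an arterial ephrin, changed by -1.39 and -1.21. Of 32 collagen and matrix genes 7 were lower and 0 higher, against the same shares, with a median of -0.41, including Cilp, a matrix protein of fibroblasts (-1.71 ± 0.33, SE, adjusted p = 0.00015), and the basement membrane genes Col4a1 (-0.80) and Col15a1 (-0.88). Without replicate 6 the counts lower and higher were 7 and 2 for the Wnt, Notch and BMP list, 10 and 4 for guidance, and 5 and 1 for matrix. With the endothelial covariate they were 0 and 5, 2 and 2, and 0 and 4, whereas single genes kept their call, Nrp2 at -0.63 (adjusted p = 0.0029) and Dkk3 at 0.59 (adjusted p = 0.018).

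The difference between the ventricles of AOB-H hearts was then set against that of sham-operated rats of the same stage, which share no library with them. Of the 1644 genes called in AOB-H, 1602 (97.4%) had the same sign in Sham-H, and 1135 (69%) were also called there with that sign. The share of all genes tested with the same sign was not counted, so the 97.4% has no base beside it. In Sham-H 2114 genes (17.7%) were higher in RV and 1771 (14.8%) lower. Across all 11954 genes, which are not independent replicates, the log2 fold changes of the 2 conditions had a Pearson r of 0.67. The test of the difference itself gave 0 genes at an adjusted p under 0.05, whether by edgeR or by DESeq2 with the same block, and 1186 genes (9.92%) at an unadjusted p under 0.05 in edgeR. In simulated data with the size of this comparison, 46 of 100 genes changed by 1 on the log2 scale and 5 of 100 changed by 0.5 were found, so that differences of these sizes could have been missed.

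For Nppa the log2 fold change of RV over LV was -2.45 in Sham-H against -2.94 in AOB-H, a difference of -0.49 with an unadjusted p of 0.42. Mean normalized counts of Nppa in sham and AOB-H hearts went from 323 ± 101 to 566 ± 247 in RV and from 1893 ± 1085 to 4919 ± 4295 in LV (SD, n = 7 and 6), but the log2 changes of 0.81 and 1.38 did not pass (adjusted p = 1.0 and 0.17). The log2 fold change of Nppb was -1.38 in AOB-H against -2.03 in Sham-H (unadjusted p of the difference 0.037, not past the threshold after adjustment), and its RV level lay 0.63 above that of sham RV (adjusted p = 1.0). Acta1 (-1.14 against -1.27) and Ankrd23 (-1.30 against -1.47) had differences from Sham-H of 0.13 and 0.17, neither past the threshold. For Penk, Irx1 and Irx2 the log2 fold change was -3.00, -3.74 and -3.87 in sham, with unadjusted p of the difference of 0.16, 0.16 and 0.088. None of these differences passed.

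The 5 genes with the smallest p for the difference from Sham-H, all of which failed after adjustment, were Ccdc82, Kif11, Ntrk3, Elmod3 and Gmcl1. Ccdc82, a coiled-coil gene, had a log2 fold change of -0.92 ± 0.33 in AOB-H (SE, adjusted p = 0.054) and of 0.82 in Sham-H (adjusted p = 0.046), a difference of -1.74 (unadjusted p = 0.00048). Its count was 21.9 to 69 in RV and 52.6 to 144 in LV of AOB-H rats, and its LV level was 1.45 above that of sham LV (adjusted p = 0.039), 1 of 2 genes past the threshold in that comparison (0.0167% of genes tested), the other being Tub (-1.52, adjusted p = 0.039). Kif11, a mitotic kinesin, differed by -1.70 and Gmcl1 by -0.77, whereas Ntrk3, the receptor of neurotrophin-3, differed by 1.82 and Elmod3 by 0.69. Tub was named after its values were seen. In the RV, 0 genes of 11954 differed between AOB-H and Sham-H at an adjusted p under 0.05, and 171 (1.43%) did so unadjusted. In the LV, 2385 genes (20%) differed from Sham-H at an unadjusted p under 0.05, beside the 2 that passed after adjustment. Of the interferon genes, Ifi44 stood at -1.25 in AOB-H and -0.53 in Sham-H (unadjusted p of the difference 0.0054) and Mx1 at -1.59 and -0.83 (unadjusted p = 0.032), and neither passed after adjustment.

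**Figure D4:**
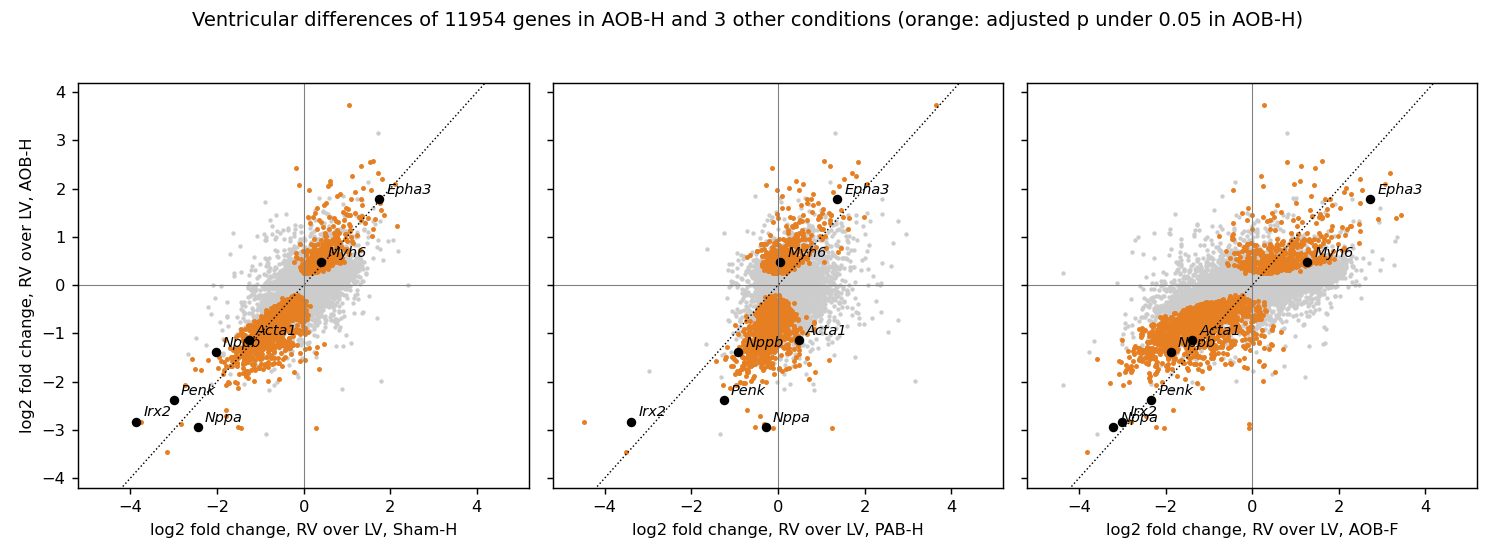
Log2 fold change of RV over LV in AOB-H (y axis) against that in Sham-H, PAB-H and AOB-F (x axes) for 11954 genes, with genes called in AOB-H in orange, the dotted line marking equal values and 7 genes labelled. Nppa lay at -2.94 in AOB-H and at -2.45, -0.28 and -3.2 in the other 3 conditions.

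When the pulmonary artery and not the aorta was banded, fewer genes differed between the ventricles. In PAB-H 116 genes (0.97%) were higher in RV and 63 (0.527%) lower, and the difference between AOB-H and PAB-H passed for 342 genes (2.86%), 108 (0.903%) more positive and 234 (1.96%) more negative in AOB-H. Nppa differed by -2.66 (-2.94 against -0.28, adjusted p = 0.026), Acta1 by -1.61 (-1.14 against 0.48, adjusted p = 0.031), Ankrd23 by -1.44 (-1.30 against 0.15, adjusted p = 0.037), Tceal7 by -2.13 (-1.65 against 0.48, adjusted p = 0.039), Sema3d by -1.89 (adjusted p = 0.03), Gimap9 by -1.12 (adjusted p = 0.045) and Atp6ap1l by 1.37 (adjusted p = 0.031). Of the same kind were Cilp (-1.71 against 0.25, adjusted p = 0.023), Nrp2 (-1.61 against -0.62, adjusted p = 0.022) and, in the other direction, Eno3 (0.91 against -0.04, adjusted p = 0.02). Irx1, Irx2, Penk, Cacna1d and Epha3 had gradients of -4.47, -3.39, -1.26, 1.45 and 1.37 in PAB-H, and their differences from AOB-H did not pass. These 342 calls rested on single animals and on the block: 13 genes passed without replicate 5, 8 without replicate 6, 111 without replicate 2, 132 without replicate 3 and 1 without the block. The endothelial score differed between the ventricles by -0.997 in AOB-H and by -0.37 in PAB-H, and the fibroblast score by -0.32 and 0.95. With the endothelial score as a covariate 178 genes differed between AOB-H and PAB-H. The groups also differed in sex, with 2 males and 4 females in AOB-H and 4 males and 2 females in PAB-H. Beyond this covariate fit, the part of other cell types and of sex in these calls was not tested.

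**Figure D5:**
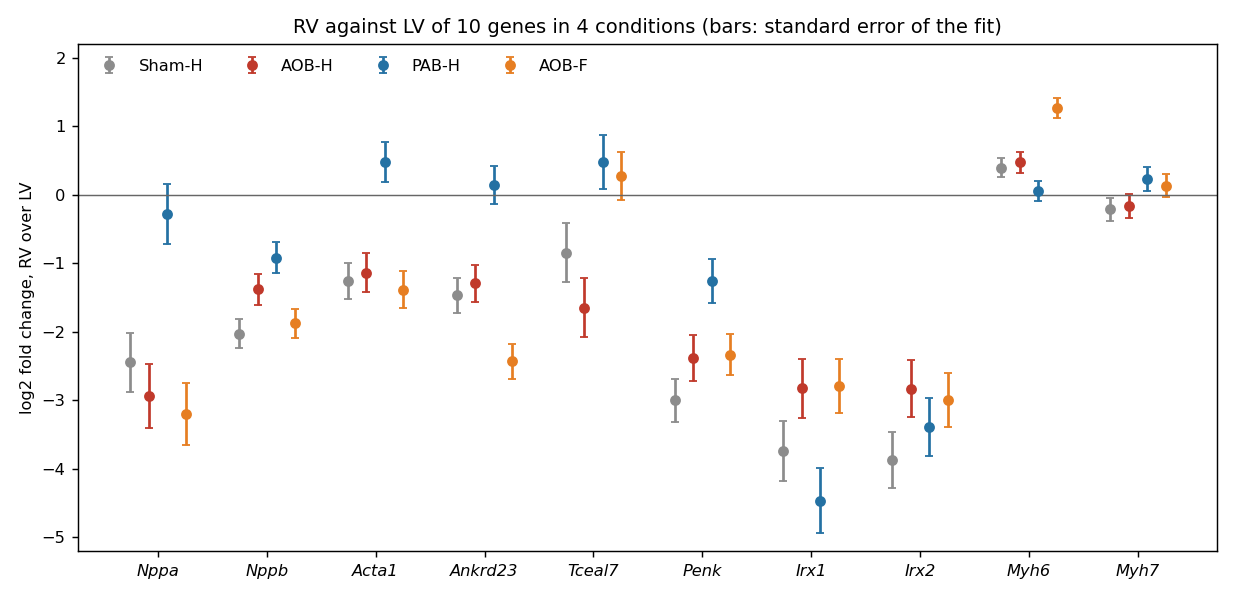
Log2 fold change of RV over LV (y axis, bars showing the standard error of the fit) of 10 genes in Sham-H, AOB-H, PAB-H and AOB-F. The values of Nppa, Acta1, Ankrd23 and Tceal7 lay below 0 in AOB-H and between -0.28 and 0.48 in PAB-H, and those of Irx1, Irx2 and Penk below -1 in all 4 conditions.

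In aortic-banded hearts at failure more genes differed between the ventricles, with 4133 genes (34.6%) higher and 4302 (36%) lower in RV of AOB-F, and 5680 genes (47.5%) differed between the stages. The AOB-F rats were also older, so that stage and age cannot be told apart. The endothelial score differed by -1.63 ± 0.45 (SD, n = 7) between their ventricles. With this score as a covariate 1879 genes differed between the stages, and beyond this fit its part was not tested. Among the genes described here Myh6 had a larger difference at failure (1.26 against 0.47, adjusted p of the difference 0.0025), as did Epha3 (2.72 against 1.79, adjusted p = 0.015), Ankrd23 (-2.43 against -1.30, adjusted p = 0.01), Aplnr (-3.07 against -1.85, adjusted p = 0.0011) and Ly6c (-2.93 against -1.80, adjusted p = 0.012). Tceal7 was at 0.27 at failure against -1.65 (adjusted p = 0.005). For Nppa, Nppb, Penk, Irx1 and Irx2 the differences between the stages did not pass.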

How the data were processed

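RNA of enriched cardiomyocytes from 41 rats, 1 RV and 1 LV library each, had been sequenced. Per the study's methods the authors trimmed reads with Trim Galore, aligned them with STAR to Rnor6.0 with its UCSC annotation and counted fragments per gene with featureCounts, leaving out multiple overlaps; whether strand was used is not given in the sources used here. The deposited raw counts (17337 genes, 1773 without a count) were analysed. The authors also deposited a normalized signal per gene (counts divided by DESeq2 1.28.1 size factors) and FPKM values, which were not used for any result.

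Counts of all 82 libraries were fitted together in edgeR 4.0.16 (R 4.3.3, limma 3.58.1) with TMM scaling, filterByExpr and a robust quasi-likelihood test, with 41 animal terms and 1 RV-minus-LV term per condition (47 terms, 35 residual degrees of freedom). Values of p were adjusted by the Benjamini-Hochberg method over the 11954 genes that passed the filter. The SE of a log2 fold change is its absolute value divided by the square root of the F statistic of the quasi-likelihood test. A normalized count is the raw count divided by the effective library size times the mean effective size of 13279120. Totals ran from 6675287 to 19665439 per library, which sets the counting precision of low genes. LV and RV libraries of an animal deviated together from their group means (r of 0.128 to 0.666 in AOB-H, median -0.014 between different animals), and the labels' animal numbers give the pairs. No 2 libraries of a group were copies, the lowest chi-square per gene being 4.92. Levels against sham were tested in a fit with a mean per group. Marker scores were compared by exact sign-flip tests over the 6 animals.

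The comparison, the gene lists and the tests were chosen with earlier results of these data known. Named were the 10 genes with the largest changes in each direction (mean normalized count over 50, same sign in 6 of 6 animals), the 5 with the smallest p for the difference from Sham-H, up to 4 members with the smallest p per list and 10 genes set by name. Irx4, Hey2, Kcnd2, Kcna5, Adrb1, Rgs2, Tnnt2, Pecam1, Tie1, Vwf, Mx1, Cxcl10 and the further called list members and neighbouring genes were named after their values were seen. Alternatives were DESeq2 1.42.0, other scalings and filters, fits without the block, with AOB-H libraries alone and without each animal, and, added after seeing the data, the endothelial score as a covariate. The fit was tested on simulated counts, in which 70 of 100 genes changed by 1 and 35 of 100 changed by 0.5 on the log2 scale were found for the AOB-H comparison, with 2 other genes called. Some items are not reported here.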

Additional observations from a re-analysis of the deposited data

Results flagged for a closer look

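Of 208 groups of a named gene and a ventricle, each of 6 libraries, 75 had a highest or lowest library set apart from the others by more than Dixon's critical value, and in 70 of them this was replicate 6. For independent, normally distributed values this cut flags about 1 in 20 groups. The counts were not put on a log scale and the groups share the same libraries, so that rate is no base for them. Replicate 6 had the highest normalized LV count of Aplnr (4192), Cacna1d (104), Ccdc82 (144), Dpep2 (143), Gimap9 (502), Kif11 (127), Kif22 (146), Ly6c (466) and Sema3d (547), and the highest RV count of Aplnr (1093), Cacna1d (241) and Sema3d (113). Replicate 2 had the highest LV count of Nppa (13506) and Ankrd23 (2206), and replicate 4 the lowest RV count of Nppb (1866).

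Of 26 groups of a marker list and a ventricle 15 were set apart in this way, all by replicate 6. In its LV library the share of counts was 0.559% for endothelial, 0.167% for mural, 0.147% for fibroblast, 0.0229% for endocardial, 0.0215% for red blood cell, 0.0148% for mesothelial, 0.0110% for macrophage, 0.00331% for Schwann cell and 0.00169% for lymphocyte markers, each the highest, and 9.0% for ventricular cardiomyocyte markers, the lowest. In its RV library the share was 0.269% for endothelial, 0.0703% for mural, 0.0386% for endocardial, 0.00714% for mesothelial and 0.00334% for red blood cell markers, each the highest.

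The RV-minus-LV difference of AOB-H differed from that of PAB-H at an adjusted p under 0.05 in edgeR for 342 genes. Among the genes named for their size of change, their p against sham or by name, these were Nppa (-2.66), Tceal7 (-2.13), Sema3d (-1.89), Acta1 (-1.61), Ankrd23 (-1.44), Gimap9 (-1.12) and Atp6ap1l (1.37), given as the log2 difference of AOB-H minus PAB-H. From AOB-F it differed for 5680 genes, among them Tceal7 (-1.92), Kif11 (-1.66), Ccdc82 (-1.59), Epha3 (-0.93), Myh6 (-0.79), Gmcl1 (-0.75), Elmod3 (0.69), Ly6c (1.13), Ntrk3 (1.14), Ankrd23 (1.14) and Aplnr (1.22), given as AOB-H minus AOB-F. Stage and age cannot be told apart there.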

How the results depend on the processing

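The count of 1644 genes stayed within 1.5 times under RLE scaling (1646), upper quartile scaling (1594), no filter on low counts (1463) and DESeq2 with the replicate block (1845). With no replicate block 953 genes passed (187 higher in RV), 948 of them among the 1644, with the 12 AOB-H libraries alone 2556 (996 higher) and with DESeq2 without a block and with shrunken fold changes 1060 (210 higher, 22 higher by the criteria adapted from the study). A minimum mean of 10 gave 74 higher by these criteria. With the endothelial score as a covariate 453 passed (317 higher, 136 lower), 206 by the criteria (154 higher, 52 lower), 178 differed from PAB-H and 1879 from AOB-F. The difference from PAB-H passed for 1 gene with no replicate block, 167 without a filter and 738 in DESeq2 with the block. The causes were not tested.

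Leaving out 1 animal at a time gave 969 to 1510 genes (249 to 480 higher, 720 to 1030 lower), the lowest without replicate 6, and 8 to 365 for the difference from PAB-H. It gave 0 genes for the difference from Sham-H in each case, and 828 genes (50.4% of the 1644) were called whichever animal was left out.

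With the endothelial covariate the sign turned for Cmtm5 (-0.26), Ace (0.14), Ank3 (-0.10), Col4a1 (0.13), Col15a1 (0.19), Kcnd2 (-0.045), Tnnt2 (-0.20) and Vwf (1.20), and for the difference from PAB-H of Epha3 (-0.15), Cmtm5 (-0.062) and Cacna1d (-0.058). With 1 animal left out the difference of Cacna1d from PAB-H ran from -0.0073 to 0.21. Scores that turned sign were those of lymphocytes with a prior count of 0.5 (0.12) and, as medians over genes, of conduction (-0.23), endocardial (-0.37) and macrophage markers (0.067). With 1 animal left out the scores ran from -0.15 to 0.087 for macrophages, -0.40 to 0.13 for lymphocytes, -0.38 to 0.17 for fat cells and -0.14 to 0.32 for Schwann cells.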
